A study of Mus musculus with 24 samples.

Results

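The choroid plexus genes examined here are transcripts that mark the secretory epithelium of the brain ventricles. The 10 listed symbols were Ttr, Folr1, Kl, Clic6, Otx2, Prlr, Sostdc1, Aqp1, Slc4a5 and Enpp2-as. Each was looked up by its Ensembl identifier in a table of 56750 entries, and 9 had a row. Enpp2-as matched no symbol of the annotation used and has no value here. All 9 passed the low-count filter that left 20354 genes for testing. RNA came from medial prefrontal cortex, and every mouse is labelled 5xFAD, an Alzheimer's disease model that expresses mutant human APP from the neuronal Thy1 promoter. The 24 libraries form 6 groups of 4. Socially isolated (SI) mice were kept with an enriched environment (SI_EE), in an arm labelled WT (SI_WT) or without treatment (SI_Con), and GH mice made up the matching groups GH_EE, GH_WT and GH_Con. The labels do not spell out GH, do not explain the WT arm, whose genotype label is also 5xFAD, and give neither age nor sex. Reads of a human APP entry were present in all 24 libraries, at 337 to 4683 CPM (counts scaled to the effective library total), and the WT arm held 2198 to 4683 CPM in SI_WT and 2344 to 3450 CPM in GH_WT. Libraries held 33683587 to 51274917 counts. SI_EE 1 stood apart. Its 10 cerebellar marker genes summed to 6043 CPM, against at most 345 CPM in any other library, and its 10 cortical pyramidal markers summed to 876 CPM, against at least 1251 CPM elsewhere.

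The choroid plexus is a vascular fold in each ventricle, covered by an epithelium that secretes cerebrospinal fluid. Its cells pump ions and water, carry vitamins and hormones from blood to fluid, and release proteins such as transthyretin. The plexus lies in the ventricles and is not part of the prefrontal cortex, though some of its genes, such as Kl, are also expressed at low levels by other brain cells. In bulk RNA, fewer cells of a type and less RNA per cell cannot be told apart. How much plexus was dissected with each cortex is not given by the labels, and its part in the results was not tested.

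Plexus transcripts were concentrated in 3 libraries of 3 different groups: SI_Con 4, SI_EE 3 and GH_WT 2. In these libraries all 9 members reached 1 CPM, and in none of the other 21 did more than 6 members do so. For 7 of the 9 members these were the 3 highest libraries of the series, and 7 members were highest in SI_Con 4. The sum over the 9 members was 1101 CPM in SI_Con 4, 577 CPM in SI_EE 3 and 370 CPM in GH_WT 2. Every other library lay between 5.71 CPM (GH_WT 3) and 90.1 CPM (SI_EE 1). A count of libraries in which at least 5 members reached 1 CPM gave 6 in all: 2 of 4 in SI_EE (1 and 3), 0 of 4 in SI_WT, 1 of 4 in SI_Con (4), 0 of 4 in GH_EE, 2 of 4 in GH_WT (2 and 4) and 1 of 4 in GH_Con (2). With a minimum of 0.5 CPM the number was 13, so outside the leading 3 the line between carrying and not carrying plexus transcripts depends on the minimum.

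**Figure D1:**
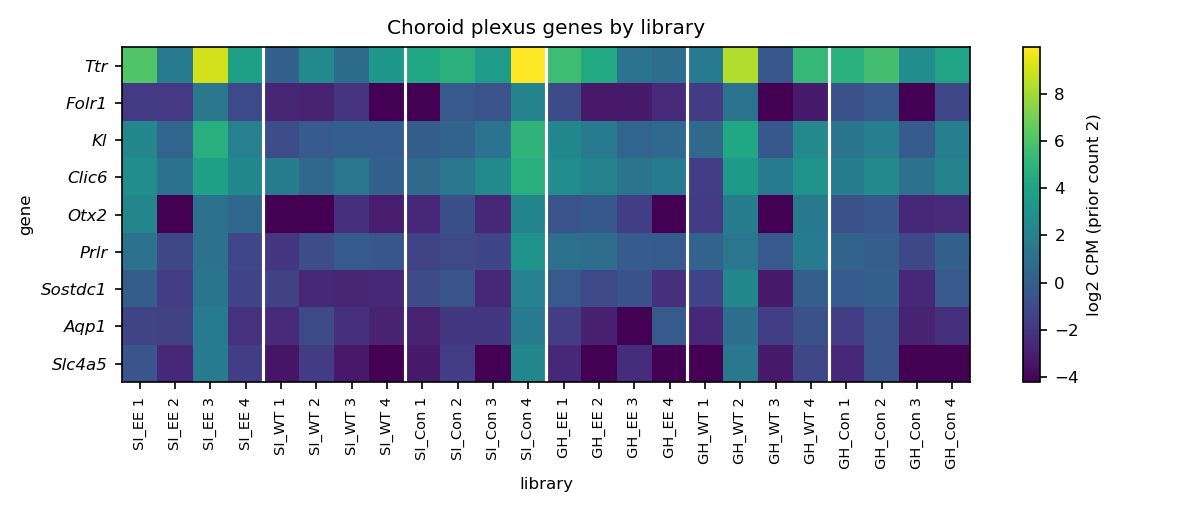
Log2 CPM (colour) of the 9 choroid plexus genes (rows) in each of the 24 libraries (columns, in groups of 4 set apart by white lines). The bright columns are SI_EE 3, SI_Con 4 and GH_WT 2, whose 9-gene sums were 577, 1101 and 370 CPM. No column of SI_WT, GH_EE or GH_Con is as bright, with sums of at most 13.2, 62.9 and 69.0 CPM.

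Ttr (chr18:20665280-20674321, plus strand, mm10) encodes transthyretin, the carrier of thyroxine and retinol-binding protein in cerebrospinal fluid, and was the leading member. It was at 69.2, 3.05, 522 and 14.2 CPM in SI_EE libraries 1 to 4, at 1.08, 5.67, 1.68 and 10.2 CPM in SI_WT, and at 19.3, 29.6, 12.0 and 1012 CPM in SI_Con. In GH mice it was at 46.9, 21.4, 2.21 and 1.83 CPM in GH_EE, at 2.99, 321, 0.714 and 37.8 CPM in GH_WT, and at 29.0, 55.1, 6.52 and 16.9 CPM in GH_Con. The SD was larger than the mean in SI_EE (152 ± 248 CPM), SI_Con (268 ± 496 CPM), GH_EE (18.1 ± 21.3 CPM) and GH_WT (90.6 ± 155 CPM; n = 4 each), and it was 4.66 ± 4.22 CPM in SI_WT and 26.9 ± 20.9 CPM in GH_Con. By median, the order of groups was SI_EE (41.7 CPM), SI_Con (24.5 CPM), GH_Con (22.9 CPM), GH_WT (20.4 CPM), GH_EE (11.8 CPM) and SI_WT (3.68 CPM). Neighbours in this order overlapped in every case. Ttr was read in all 24 libraries, and its highest value was 65.0 times its median over libraries of 15.6 CPM.

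**Figure D2:**
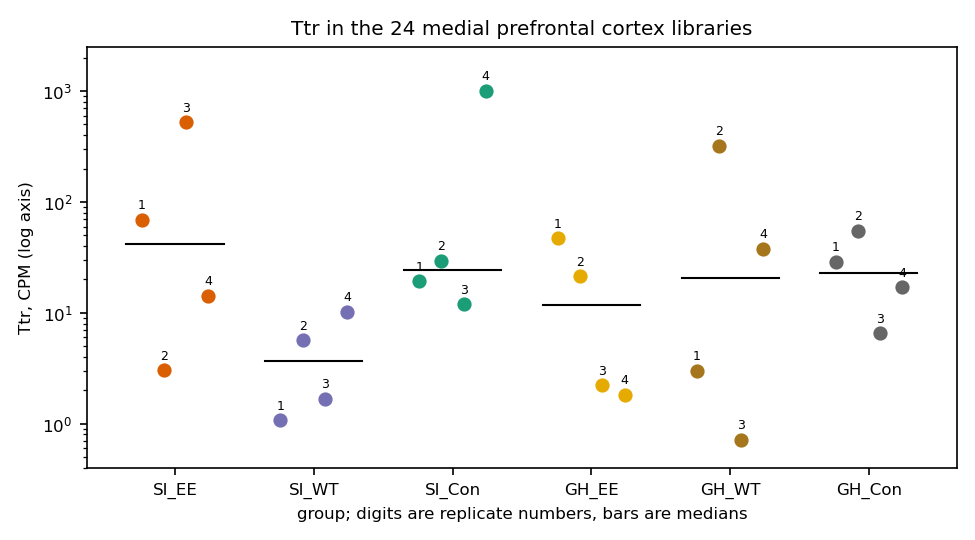
Ttr in CPM on a log axis for each library, by group (digits are replicate numbers, bars are group medians). SI_Con 4 (1012 CPM), SI_EE 3 (522 CPM) and GH_WT 2 (321 CPM) lie far above the rest of their groups, and the 4 SI_WT libraries (1.08 to 10.2 CPM) lie below the 4 SI_Con libraries (12.0 to 1012 CPM).

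Among the members that bind or carry ligands, Folr1 (chr7:101858331-101870788, minus strand), the folate receptor through which the plexus takes up folate, was at 4.34 CPM in SI_Con 4, 2.59 CPM in SI_EE 3 and 2.20 CPM in GH_WT 2. Its other 21 libraries lay between 0 and 0.797 CPM, with no read in 4. Folr1 overlaps Anapc15 on the opposite strand (median 12.8 CPM), and since the use of strand in counting is not given, low Folr1 values may hold reads of that gene. Kl (chr5:150952607-150993817, plus strand) encodes klotho, a coreceptor for fibroblast growth factor 23 that is made in kidney and plexus and at lower levels by neurons. It was at 32.7 CPM in SI_Con 4, 25.2 CPM in SI_EE 3 and 19.6 CPM in GH_WT 2, against 0.499 to 5.41 CPM in the other 21 libraries. Kl was never at 0, and its median in those 21 libraries was 1.47 CPM.

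The members that move ions and water followed the same libraries. Slc4a5 (chr6:83219828-83304945, plus strand), a sodium bicarbonate cotransporter of the plexus, gave the clearest separation among these ion and water members. It was at 5.03 CPM in SI_Con 4, 3.17 CPM in SI_EE 3 and 2.72 CPM in GH_WT 2, against at most 0.655 CPM (SI_EE 1) elsewhere and no read in 7 libraries. Aqp1 (chr6:55336432-55348555, plus strand), the water channel of the plexus epithelium, was at 3.22, 2.91 and 1.82 CPM in SI_Con 4, SI_EE 3 and GH_WT 2 and at most 0.825 CPM elsewhere. Clic6 (chr16:92485736-92541243, plus strand), of the chloride intracellular channel family, was at 26.5, 15.2 and 11.2 CPM in the same order. After Ttr it had the highest median outside them as well, with a median of 3.18 CPM and a range of 0.282 to 8.23 CPM, and its highest library was only 7.72 times its median over the series.

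Prlr (chr15:10177238-10349180, plus strand), the prolactin receptor, was at 8.36 CPM in SI_Con 4 but only 2.17 CPM in SI_EE 3 and 2.55 CPM in GH_WT 2, within the range of the other libraries, where GH_WT 4 reached 3.15 CPM. Sostdc1 (chr12:36314139-36318452, plus strand), a secreted antagonist of BMP and Wnt signals, was highest in GH_WT 2 at 4.97 CPM, then 4.11 CPM in SI_Con 4 and 2.41 CPM in SI_EE 3. Its next library was GH_Con 2 at 1.04 CPM. Otx2 (chr14:48657677-48673819, minus strand), a homeodomain factor needed to form and maintain the plexus, departed from the pattern. Its highest library was SI_EE 1 at 4.91 CPM, followed by SI_Con 4 (4.45 CPM), GH_WT 2 (3.42 CPM), GH_WT 4 (2.82 CPM) and SI_EE 3 (1.98 CPM). Per 1000 Ttr reads, SI_EE 1 held 71.0 Otx2 reads (exact Poisson interval 61.4 to 81.7, which covers counting error only) and GH_WT 4 held 74.5. SI_Con 4 held 4.40 (3.73 to 5.15), SI_EE 3 held 3.8 and GH_WT 2 held 10.7. The ratio was as high or higher in some libraries with little Ttr, and 0 in others. Otx2 had no read in 5 libraries (GH_EE 4, SI_EE 2, GH_WT 3, SI_WT 1 and SI_WT 2), which held 25 to 206 Ttr reads. SI_EE 4 held 52 Otx2 and 520 Ttr reads, and GH_EE 3, SI_WT 3 and GH_WT 1 held at most 10 Otx2 reads against at most 106 Ttr reads each. Of the libraries with a high ratio, SI_EE 1 held the cerebellar transcripts, and the 10 thalamus and habenula markers summed to 520 CPM in SI_EE 1 and 393 CPM in GH_WT 4. That sum was 258 CPM in GH_WT 2 and 39.2 to 107 CPM in the remaining 21 libraries, which include SI_EE 4 (107 CPM). Calb2 alone gave 368 CPM of the sum in SI_EE 1. By mean log2 CPM the list was at 2.69 in SI_EE 1, below GH_WT 4 (4.22) and GH_WT 2 (4.14). The part of these cerebellar and thalamic markers in the Otx2 values was not tested.

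**Figure D3:**
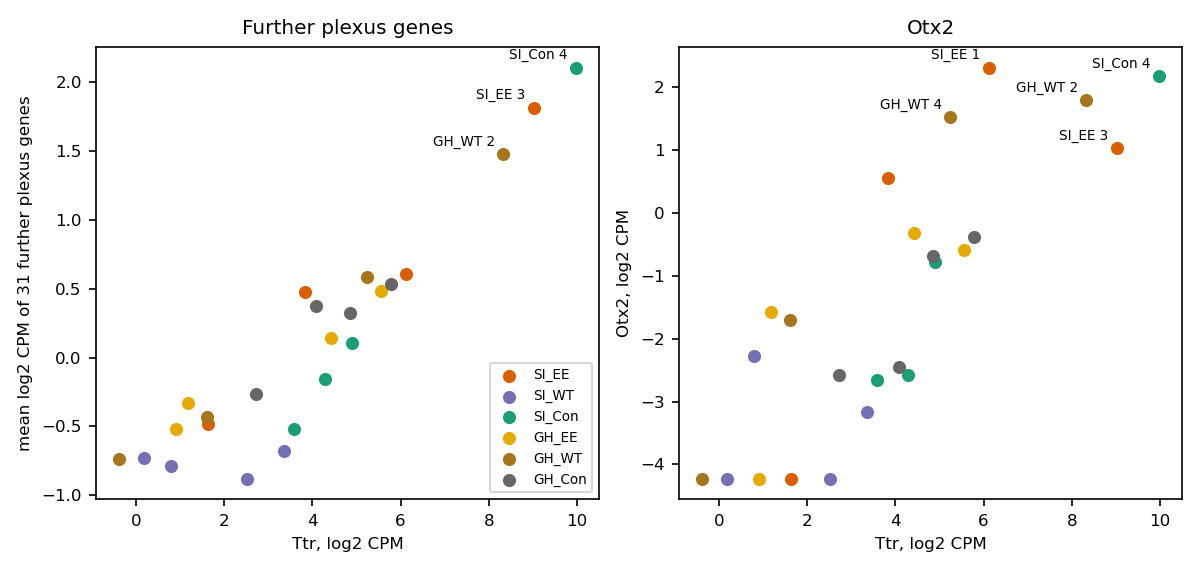
Each point is 1 library, with Ttr in log2 CPM on the horizontal axis and, on the vertical axis, the mean log2 CPM of 31 further plexus genes (left) or Otx2 in log2 CPM (right). The further genes are highest, as is Ttr, in SI_Con 4, SI_EE 3 and GH_WT 2, while Otx2 in SI_EE 1 (4.91 CPM) and GH_WT 4 (2.82 CPM) lies above libraries of like Ttr.

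Otx2 is a transcription factor, and promoters were searched for the OTX core motif TAATCC on both strands (GGATTA on the other). High values of the members in the same libraries do not by themselves show shared regulation. The RefSeq table (GRCm38.p6) holds windows from 250 bases before to 50 bases after a transcript start for 5 of the 9 members, Kl, Aqp1, Slc4a5, Otx2 and Prlr, with 10 windows in all, and has no entry for Ttr, Folr1, Clic6 or Sostdc1. Of the 10 windows, 1 held the motif, an Otx2 start, against 7.06% of 32851 windows of all genes. Of the members with windows, Kl, Aqp1 and Slc4a5 separated the 3 libraries without overlap. The Aqp1 window held no motif and is not shown. The Otx2 window with the motif (chr14:48665060-48665359, minus strand) and those of Kl (chr5:150952357-150952656) and Slc4a5 (chr6:83237125-83237424, both plus strand) are shown with the motif in capitals.
Otx2: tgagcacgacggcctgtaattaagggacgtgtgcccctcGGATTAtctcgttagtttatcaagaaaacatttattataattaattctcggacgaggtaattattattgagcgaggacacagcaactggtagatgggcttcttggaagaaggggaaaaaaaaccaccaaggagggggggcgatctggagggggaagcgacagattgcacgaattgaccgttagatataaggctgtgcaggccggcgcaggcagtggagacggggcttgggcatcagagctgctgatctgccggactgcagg
Kl: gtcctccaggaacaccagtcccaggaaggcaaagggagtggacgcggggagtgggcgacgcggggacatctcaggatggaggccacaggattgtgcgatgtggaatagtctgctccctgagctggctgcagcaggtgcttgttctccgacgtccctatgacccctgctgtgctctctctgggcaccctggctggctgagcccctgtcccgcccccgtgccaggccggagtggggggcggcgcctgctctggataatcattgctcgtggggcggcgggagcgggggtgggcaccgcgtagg
Slc4a5: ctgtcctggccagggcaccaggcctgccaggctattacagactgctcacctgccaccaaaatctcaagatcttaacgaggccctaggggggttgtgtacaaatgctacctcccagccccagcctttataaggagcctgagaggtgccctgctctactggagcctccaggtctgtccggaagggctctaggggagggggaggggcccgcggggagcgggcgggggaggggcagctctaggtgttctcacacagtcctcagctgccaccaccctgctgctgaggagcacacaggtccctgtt
The Kl and Slc4a5 windows hold no capitals, and both are rich in G and C (67.3% and 62.7%, against a median of 52.7% over all windows), while the Otx2 window is at 51%. A window without these letters says nothing about binding elsewhere in the gene.

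The share of each member in the reads of the 9 members differed between libraries. Ttr supplied 91.9% of the reads of the 9 members in SI_Con 4 (95% Wilson interval 91.7 to 92.2%, counting error only), 90.4% in SI_EE 3 (89.97 to 90.8%) and 86.9% in GH_WT 2 (86.3 to 87.4%). It supplied 12.5% in GH_WT 3, 18.6% in SI_WT 1 and 21.8% in GH_EE 4, where Clic6 and Kl made up most of the rest. The 9-member sums there were only 5.71, 5.79 and 8.39 CPM. Clic6 was at 3.06, 3.44 and 3.18 CPM in these libraries, near its median of 3.18 CPM in the 21 libraries outside the leading 3. Per 1000 Ttr reads, Kl had 32.3 reads in SI_Con 4 (30.5 to 34.3), 48.3 in SI_EE 3 (45.3 to 51.5) and 61.2 in GH_WT 2 (57.0 to 65.6), intervals that do not overlap. Clic6 was closer, at 26.2, 29.1 and 34.9 in the same order, and Slc4a5 was at 4.97, 6.08 and 8.48. Sostdc1 had 15.5 in GH_WT 2, against 4.06 in SI_Con 4 and 4.61 in SI_EE 3. Divided by exon length, the CPM levels in SI_Con 4 were 853 per kilobase for Ttr, 6.77 for Clic6, 3.51 for Kl, 2.31 for Sostdc1, 1.89 for Folr1, 1.22 for Aqp1, 1.05 for Otx2, 0.866 for Slc4a5 and 0.545 for Prlr. Exon length was the union of all annotated exons, which lowers genes with long alternative ends such as Prlr.

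A list of further genes of the plexus epithelium was drawn up with earlier results of these data known. Of its 31 genes with a row, 24 were highest in one of SI_Con 4, SI_EE 3 and GH_WT 2, 20 of them in SI_Con 4. For 11 genes these were the 3 highest libraries. Kcnj13, a potassium channel of the epithelium, was at 4.71, 4.21 and 3.35 CPM in SI_Con 4, SI_EE 3 and GH_WT 2, against at most 1.31 CPM elsewhere. Tmem72, a membrane protein abundant in plexus, was at 7.33, 5.98 and 2.27 CPM, against at most 0.504 CPM. Enpp2, which makes lysophosphatidic acid in plexus and in oligodendrocytes, was at 568, 413 and 364 CPM over a median of 234 CPM in the other 21 libraries. Igfbp2, Car12, Slc22a8 and Bmp6 did not follow, with their highest values in GH_WT 1 (22.9 CPM), SI_EE 4 (24.4 CPM), SI_Con 2 (17.7 CPM) and GH_Con 1 (10.9 CPM). Slc29a4, Col9a3 and Rdh5 were highest in SI_EE 1 (27.7, 22.2 and 8.97 CPM), which was also the highest library for Otx2. In SI_EE 3 these genes were at 6.77, 12.4 and 3.54 CPM. Of 12 further genes of plexus ion and water transport, 5 were highest in SI_Con 4, among them Kcnj13, Kcne2 and Trpv4, which with Car12 are also in the list of 31. The most abundant of them, Atp1b1, a sodium pump subunit that neurons also express, was at 2153 CPM in SI_Con 4, against a median of 1958 CPM in the other 21 libraries.

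A search over 16446 genes for the pattern most like Ttr (Pearson's r of log2 CPM over 24 libraries, members left out) returned mostly genes of the same epithelium. The 10 leading genes were Steap1 (r = 0.89), Mfrp (0.88), Calml4 (0.86), Lmx1a (0.85), F5 (0.85), Prr32 (0.84), Wdr63 (0.81), Cldn2 (0.77), Cltrn (0.76) and Kcnj13 (0.76). Steap1 is a metalloreductase, F5 is coagulation factor V, Cldn2 is a tight junction protein of leaky epithelia, and Lmx1a is a factor of the roof plate from which the plexus develops. Of these 10, 8 were in the list of further plexus genes, all but Wdr63 and Cltrn. Because that list was drawn up with earlier results of these data known, the overlap is not independent support. Wdr63 is a protein of motile cilia and was highest in GH_WT 2 at 2.0 CPM. Among the members, r with Ttr was 0.90 for Kl, 0.85 for Sostdc1, 0.83 for Otx2, 0.78 for Slc4a5, 0.73 for Folr1, 0.72 for Clic6, 0.69 for Prlr and 0.68 for Aqp1. Without SI_Con 4, SI_EE 3 and GH_WT 2, r over the remaining 21 libraries was 0.80 for Steap1, 0.76 for Otx2, 0.76 for Kl and 0.23 for Aqp1. These values are a description over 24 libraries that differ in depth and in regional markers, and no test was made of them.

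Genes of tissue around the plexus were set beside the same libraries. Ependymal genes, which mark the ciliated cells that line the ventricles (14 genes), summed to 50.96 CPM in GH_WT 2, 38.1 CPM in SI_EE 3 and 29.3 CPM in SI_Con 4, in a series range of 10.5 CPM (SI_WT 1) to 50.96 CPM. Of the 14 genes, 4 were highest in one of these 3 libraries and 0 in SI_Con 4. Their mean log2 CPM had r = 0.71 with Ttr over the 24 libraries and 0.71 without the 3, against 0.93 and 0.84 for the further plexus genes. Foxj1, the master factor of motile cilia, was at 8.39 CPM in SI_Con 4 and 12.6 CPM in GH_WT 2. In the other 21 libraries its median was 6.55 CPM and its highest value 12.4 CPM. Meningeal and fibroblast genes (16 genes) summed to 518 CPM in SI_Con 4, 453 CPM in SI_EE 3 and 541 CPM in GH_WT 2, and 0 of 16 were highest in any of the 3. SI_EE 1 was highest by sum (1157 CPM) and by mean log2 CPM (3.94). Ptgds, a prostaglandin synthase also made by oligodendrocytes, supplied most of these sums, with a mean of 406 CPM over the series. Haemoglobin and related blood genes (5 genes) were highest in GH_Con 4 (188 CPM) and summed to 10.5 CPM in SI_Con 4. Striatal genes (10 genes) summed to 1253 CPM in SI_Con 4, 982 CPM in SI_EE 3 and 594 CPM in GH_WT 2, within the series range of 312 to 1854 CPM.

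Group comparisons used edgeR's quasi-likelihood test with Benjamini-Hochberg adjustment over 20354 genes, with a threshold of 0.05. Whether the 4 libraries of a group stem from separate animals is not stated in the labels, and the p-values therefore reflect variation among libraries, which may be technical. None of the 9 members passed in any of 7 group comparisons or 2 interactions, and DESeq2 also called 0 in each. No gene of the further plexus, ion transport, ependymal, meningeal, thalamus and habenula, cerebellar, striatal, cortical pyramidal or blood lists passed in the edgeR fit.

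For the WT arm in isolated mice, SI_WT was the group with the lowest median 9-member sum (7.97 CPM), and SI_Con (29.5 CPM) held the library with the most. The 9-member sums were 5.79 to 13.2 CPM in SI_WT and 21.5 to 1101 CPM in SI_Con. All 9 members had negative log2 fold changes of SI_WT over SI_Con, with a median of -3.50, against -0.00 over all genes. Ttr was at -5.86 (SE 2.04), Otx2 at -4.58 (SE 1.69), Slc4a5 at -3.95 (SE 1.77), Folr1 at -3.91 (SE 1.49) and Kl at -3.50 (SE 1.18). At an unadjusted p under 0.05 there were 8 of 9 members, all but Aqp1, where 3.84% of all genes were; at the adjusted threshold there were 0 members, and 0% of all genes. Ttr was the only member whose groups did not overlap, which held for 1.31% of all genes in this direction and 0.796% in the other. Its two-sided exact permutation p on log2 CPM was 0.0286, the smallest that 70 assignments of 4 and 4 libraries allow, and 0.2 when adjusted over the 7 comparisons. Without SI_Con 4, 0 of 9 members had an unadjusted p under 0.05, and the Ttr log2 fold change was -2.13. Of 28 further plexus genes tested, 26 had negative fold changes (median -1.31) and 15 an unadjusted p under 0.05. Ependymal genes (14 of 14) and meningeal genes (16 of 16) were also lower in SI_WT, with 11 and 6 of them at an unadjusted p under 0.05. Their sums were 10.5 to 17.4 CPM in SI_WT and 18.5 to 47.4 CPM in SI_Con for ependyma, and 270 to 474 CPM in SI_WT and 424 to 1124 CPM in SI_Con for meninges. Their part in the plexus difference was not tested.

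In GH mice the WT arm lay on the other side. All 9 members had positive fold changes of GH_WT over GH_Con (median 1.27, with Ttr at 1.75, SE 1.69), and 0 had an unadjusted p under 0.05 (3.42% of all genes). The 9-member sums were 5.71 to 370 CPM in GH_WT and 10.2 to 69.0 CPM in GH_Con, so GH_WT held values both above and below all of GH_Con. Without GH_WT 2 the Ttr log2 fold change was -0.96. The mean difference of Ttr log2 CPM was negative as well, at -0.66. No member had groups without overlap (2.21% of all genes were higher and 2.02% lower without overlap). The further plexus genes were less uniform than the members. Of 28 tested, 18 were positive and 10 negative (median 0.18), with 0 at an unadjusted p under 0.05. The 10 thalamus and habenula genes were all positive in this comparison and all at an unadjusted p under 0.05, and their part was not tested. The interaction of WT arm and housing had 9 of 9 negative members (Ttr -7.61, SE 2.62; Kl -4.89, SE 1.59). Of these, 8 had an unadjusted p under 0.05, against 4.52% of all genes, and 0 passed after adjustment (edgeR adjusted p = 1.0 for each). Without SI_Con 4 the unadjusted number was 0, and without GH_WT 2 it was 3.

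Within the WT arm, isolation (SI_WT against GH_WT) gave 9 of 9 negative fold changes with a median of -3.07. Ttr was at -4.30 (SE 1.90), Otx2 at -4.91 (SE 1.70) and Sostdc1 at -3.24 (SE 1.14). Kl, Otx2, Sostdc1 and Ttr had an unadjusted p under 0.05 (5.37% of all genes did), and the smallest edgeR adjusted p of a member was 0.759. Library values overlapped for every member (2.24% of all genes were lower and 1.36% higher without overlap), and the 9-member sums of GH_WT 1 (6.96 CPM) and GH_WT 3 (5.71 CPM) were as low as those of SI_WT. Without GH_WT 2 the unadjusted number was 1. Among 28 further plexus genes tested, 26 were negative and 2 positive (median -1.34), with 12 at an unadjusted p under 0.05. The thalamus and habenula list had 10 of 10 negative members in this comparison, all at an unadjusted p under 0.05. Ependymal (14 of 14) and meningeal genes (16 of 16) were negative too, 8 and 12 of them at an unadjusted p under 0.05, as were the 5 blood genes, 4 of them at that level. The thalamus and habenula list summed to 39.2 to 51 CPM in SI_WT and 40.7 to 393 CPM in GH_WT, and the part of these lists in the plexus values was not tested.

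Isolation without treatment (SI_Con against GH_Con) gave 9 of 9 positive fold changes, with a median of 1.69 and Ttr at 3.32 (SE 1.80), and 0 members at an unadjusted p under 0.05 (6.53% of all genes). Ttr in SI_Con libraries 1 to 3 (12.0 to 29.6 CPM) lay inside the GH_Con range (6.52 to 55.1 CPM). No member had groups without overlap, against 1.95% of all genes higher and 2.61% lower without overlap. Without SI_Con 4 the Ttr log2 fold change was -0.40. Further plexus genes were positive for 20 of 28 tested and negative for 8 (median 0.51), with 1 at an unadjusted p under 0.05. All 5 blood genes had negative fold changes at an unadjusted p under 0.05 (median -3.31), with sums of 2.41 to 10.5 CPM in SI_Con and 3.86 to 188 CPM in GH_Con, and all 10 striatal genes were negative. Their part in the plexus values was not tested.

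Enrichment gave no common direction. In isolated mice (SI_EE against SI_Con), 7 of 9 members were negative and 2 positive, with Ttr at -0.82 (SE 1.65), Kl at -0.07 (SE 1.04) and Otx2 at 0.68 (SE 1.29), and 0 had an unadjusted p under 0.05 (12.6% of all genes). No member had groups without overlap (2.24% of all genes were higher and 2.40% lower without overlap). Further plexus genes were negative for 16 of 28 tested and positive for 12 (median -0.12), with 2 at an unadjusted p under 0.05. Cerebellar genes were positive in 10 of 10 and at an unadjusted p under 0.05 in 9, and their part was not tested. Each of these groups held 1 of the leading libraries, and the Ttr log2 fold change was -3.23 without SI_EE 3 and 2.91 without SI_Con 4. In GH mice (GH_EE against GH_Con), 5 members were positive and 4 negative, with a median of 0.01 and Ttr at -0.57 (SE 1.66). None had an unadjusted p under 0.05 (6.32% of all genes), and 0.00491% of all genes passed the adjusted threshold. No member had groups without overlap, against 4.50% of all genes higher and 4.06% lower without overlap. Among 28 further plexus genes tested, 19 were negative and 9 positive (median -0.13), with 0 at an unadjusted p under 0.05. All 5 blood genes were negative here, 4 of them at an unadjusted p under 0.05, and their part was not tested. Isolation within the enriched arm (SI_EE against GH_EE) gave 8 of 9 positive members, with Slc4a5 at 4.02 (SE 1.83), Ttr at 3.07 (SE 1.78) and Prlr at -0.13 (SE 0.85). Slc4a5 had an unadjusted p of 0.0392 from edgeR (adjusted 0.560), as did 8.70% of all genes by that threshold. At the adjusted threshold 0.00491% of all genes passed, and 2.35% were higher and 2.01% lower without overlap, among them no member. Without SI_EE 3 the Ttr log2 fold change was 0.66. Further plexus genes were positive for 28 of 28 tested (median 0.83), with 4 at an unadjusted p under 0.05. All 16 meningeal and all 10 thalamus and habenula genes were positive here too, 0 and 3 of them at an unadjusted p under 0.05. All 10 cerebellar genes were positive and all at an unadjusted p under 0.05 (median 4.50), with sums of 226 to 6043 CPM in SI_EE (the highest in SI_EE 1) and 249.5 to 296 CPM in GH_EE. All 10 cortical pyramidal genes and all 10 striatal genes were negative. The part of these lists was not tested. The interaction of enrichment and housing had 4 positive and 5 negative members and 0 at an unadjusted p under 0.05 (7.74% of all genes). Each of the 6 groups enters more than 1 of these comparisons, so their fold changes are not independent.

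**Figure D4:**
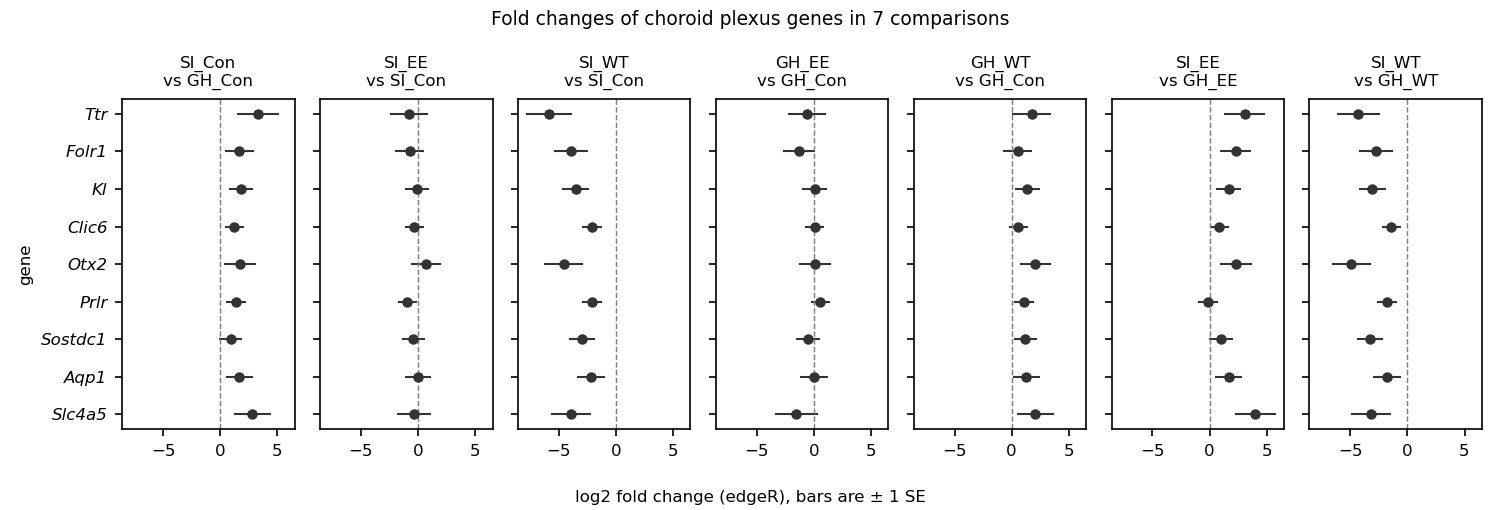
Log2 fold changes (horizontal axis, edgeR, bars are 1 SE either side) of the 9 choroid plexus genes (rows) in the 7 group comparisons (panels, first-named group over the second). All 9 points lie left of 0 for SI_WT against SI_Con (median -3.50) and against GH_WT (median -3.07), and right of 0 for SI_Con against GH_Con (1.69) and GH_WT against GH_Con (1.27), while none passed the adjusted threshold.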

How the data were processed

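Total RNA of the medial prefrontal cortex was isolated with Trizol and RNeasy columns, treated with DNase and sequenced on the Illumina platform (labels' protocols). The deposited table was used as raw counts. Its values are whole numbers whose totals differ between libraries, though this alone does not show that no scaling had been applied. The genome build was mm10, per the submitters' processing notes. The aligner, counting tool, annotation and strand setting were not given in the sources used here. Symbols were paired with 91.8% of 56750 entries from GENCODE M21 (GRCm38), which also gave positions. Entries without a symbol held 0.695% of reads. Groups and replicate numbers came from the sample titles. The gene list, further lists and tests were chosen with earlier results of these data known.

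CPM values are counts over library totals scaled by TMM factors; log2 CPM uses a prior count of 2. All 24 libraries entered 1 fit (edgeR 4.0.16, R 4.3.3; filterByExpr on the group, robust quasi-likelihood, no covariate), with 7 group contrasts and 2 interactions. SE is the fold change over the root of its F statistic. Ttr was also tested by exact permutation (SciPy 1.17.1). Alternatives were RLE factors, DESeq2 1.42.0, no filter, the compared groups alone, a replicate block, and leaving out libraries. The fit was tested on simulated data. Within groups, no pair of libraries agreed within sampling noise. Named genes were all members, the 10 genes most like Ttr with at least 50 reads and a named symbol (none of the provisional Gm and Rik symbols), and members of the lists past the threshold or else the most abundant. Further list genes in the text were chosen after their values were seen. Some items that this rule names are not reported here.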

Additional observations from a re-analysis of the deposited data

Results flagged for a closer look

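Among 54 sets of 4 libraries (9 members in 6 groups), 17 had 1 library whose gap to the nearest other exceeded the 95% limit of Dixon's test for 4 values. Chance flags about 1 in 20 sets of independent, normally distributed values. The values here were CPM without logs, and the 9 members were read in the same libraries. The 17 of 54 therefore cannot be set against that rate. Of the 17, 7 were in SI_Con, 4 in SI_EE, 3 in GH_WT and 1 in each of SI_WT, GH_EE and GH_Con.

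SI_Con 4 stood above the rest of its group for Ttr (1012 CPM), Kl (32.7 CPM), Prlr (8.36 CPM), Slc4a5 (5.03 CPM), Otx2 (4.45 CPM), Sostdc1 (4.11 CPM) and Aqp1 (3.22 CPM). SI_EE 3 did so for Ttr (522 CPM), Kl (25.2 CPM), Aqp1 (2.91 CPM) and Folr1 (2.59 CPM). GH_WT 2 did so for Ttr (321 CPM), Slc4a5 (2.72 CPM) and Folr1 (2.20 CPM). These libraries had replicate numbers 4, 3 and 2 and came from different groups. The remaining sets were at low levels: Folr1 in GH_EE 1 (0.477 CPM), Slc4a5 in GH_Con 2 (0.638 CPM) and Sostdc1 in SI_WT 1 (0.320 CPM).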

How the results depend on the processing

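The number of members past the threshold was 0 in all 142 alternative values over the 9 tests. The number of all genes past it, which is the background, was 31 in SI_Con against GH_Con by DESeq2 (1 with only the groups compared), 164 in SI_EE against SI_Con, 2 in SI_WT against SI_Con, 27 in GH_EE against GH_Con (2 with only the groups compared), 11 in GH_WT against GH_Con (2 with only the groups compared), 23 in SI_EE against GH_EE (0 with only the groups compared), 11 in SI_WT against GH_WT, 27 for the enrichment interaction and 1 for the WT interaction by DESeq2. Without the 4 libraries in which longer genes read lower (SI_WT 4, SI_Con 2, SI_Con 3 and GH_Con 2; rho of gene length with deviation -0.35 to -0.24) it was 1, 1, 0 and 0 for SI_EE and SI_WT against SI_Con, GH_EE against GH_Con and SI_EE against GH_EE. Leaving out 1 library gave 0 to 1 for SI_Con against GH_Con, SI_WT against SI_Con, SI_WT against GH_WT and the enrichment interaction, 0 to 91 for SI_EE against SI_Con (91 without SI_EE 2) and 1 to 3 for SI_EE against GH_EE. The cause was not tested. The Ttr log2 fold change ranged over those fits from -0.40 to 3.94 for SI_Con against GH_Con, -3.23 to 2.91 for SI_EE against SI_Con, -1.67 to 0.058 for GH_EE against GH_Con, -0.96 to 2.37 for GH_WT against GH_Con and -2.66 to 3.45 for the enrichment interaction, and kept its sign in the other 4 tests. Same-numbered libraries of compared groups share only a number: 3 of 28 pairs had a correlation of deviations over 0.1 (range -0.28 to 0.18). With the replicate block the Ttr fold change was 1.10 for SI_EE against SI_Con and 1.26 for the enrichment interaction, both reversed, and no call changed. The block left 4 members at an unadjusted p under 0.05 in SI_WT against SI_Con, in place of 8, and 4 in place of 8 for the WT interaction. These counts were added after seeing the data. With only the groups compared the first was also 4, without the 4 libraries named above SI_Con against GH_Con had 4 in place of 0, and without SI_Con 4 SI_EE against SI_Con had 2 in place of 0. Without those 4 libraries with lower long genes the Ttr fold change was 0.059 for GH_EE against GH_Con. The number of libraries with 5 or more members was 13 at 0.5 CPM, 5 at 2 CPM and 4 without Ttr. On the CPM scale the Ttr difference of GH_WT and GH_Con turned positive (exact permutation p = 0.8). With 4 libraries a group and an SD as large as the mean, small group differences were not detectable. Values under 1 CPM rest on few reads.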
